A study of Mus musculus with 6 samples.

Results

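The fibroblast growth factor (FGF) system was followed through the prostate lobes of 1 wild-type (WT) and 1 MYC mouse by 8 genes: the ligands Fgf1, Fgf2, Fgf7 and Fgf10 and the receptors Fgfr1, Fgfr2, Fgfr3 and Fgfr4. They were taken by symbol from a table of 24908 genes, which writes mouse symbols in capitals (FGF1, FGF2, FGF7, FGF10, FGFR1, FGFR2, FGFR3 and FGFR4), and all 8 were found. The anterior (AP), dorsolateral (DLP) and ventral (VP) prostate of each mouse gave 1 bulk RNA-seq library, 6 in all. Both mice were FVB, 12 weeks old and littermates fed the same purified diet. The MYC mouse was heterozygous for a human c-MYC transgene under the ARR2Pb promoter, a probasin-derived, androgen-responsive promoter active in prostate epithelium, and the WT mouse lacked it. The RNA came from lobes dissociated into filtered single-cell suspensions, so cells lost in dissociation are not represented. Each genotype is 1 mouse, hence an effect of the transgene cannot be told apart from any other difference between the 2 animals, and no p-value was computed.

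FGFs are secreted proteins that bind heparan sulfate at the cell surface and switch on receptor tyrosine kinases, which signal mainly through the RAS and MAP kinase cascade. In the prostate, Fgf7 and Fgf10 are classical products of stromal cells that act on the epithelium through the epithelial splice form of Fgfr2, whereas Fgf2 acts mostly through Fgfr1. Fgf10 is required for prostate budding in the embryo. The unit of the table is FPKM, the fragments of a gene scaled to the length of its transcript and to the depth of the library, a per-length unit in which levels of different genes can be set side by side.

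The libraries held between 25.5 M (WT AP) and 50.2 M (MYC AP) mapped reads, as recovered from the smallest steps between FPKM values. Each ratio between libraries is given with a 95% interval from the reads estimated behind it; these intervals cover counting error only and say nothing of the variation between mice. Across genes, ratios were taken as log2 of (FPKM + 1), and a gene was called different when it differed by at least 2-fold on that scale. Of the 8 genes, 7 reached a mean of 1 FPKM over the 6 libraries, as did 12361 genes in all, and Fgfr4 did not. The Myc row read 230.0, 200.6 and 226.4 FPKM in WT AP, DLP and VP and 230.9, 586.1 and 1696 FPKM in the same lobes of the MYC mouse. The human transgene has no row of its own, and whether its reads enter the Myc row cannot be told. The higher DLP and VP values therefore cannot be assigned to the mouse gene. With nearly equal AP values in the 2 mice, the MYC AP library carries no mark of the transgene in this row. Luminal (Epcam, Krt8), basal (Krt5, Krt14) and stromal genes were present in every library.

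On the mouse assembly GRCm38, Fgf2 lies at chr3:37348477-37410106, Fgf7 at chr2:126034658-126091185 and Fgf10 at chr13:118714699-118792573. Fgfr2 lies at chr7:130162451-130266808, Fgfr3 at chr5:33721724-33737068 and Fgfr4 at chr13:55152818-55168759. The 250 bases before the RefSeq start sites of Fgf7 and Fgf10 are shown because these paracrine ligands were both higher in MYC than in WT AP and lower in MYC DLP and VP; both sequences are on the plus strand of GRCm38.p6.
Fgf7, chr2:126034408-126034657: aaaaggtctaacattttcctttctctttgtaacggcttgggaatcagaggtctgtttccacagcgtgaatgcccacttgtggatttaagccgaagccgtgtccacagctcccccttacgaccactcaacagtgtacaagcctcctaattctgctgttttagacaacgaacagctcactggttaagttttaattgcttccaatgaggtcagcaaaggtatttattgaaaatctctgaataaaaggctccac
Fgf10, chr13:118714449-118714698: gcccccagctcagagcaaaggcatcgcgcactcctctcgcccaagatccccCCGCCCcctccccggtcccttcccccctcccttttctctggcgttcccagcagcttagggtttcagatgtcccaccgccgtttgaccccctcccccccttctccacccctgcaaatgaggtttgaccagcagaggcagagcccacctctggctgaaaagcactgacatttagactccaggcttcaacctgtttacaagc
Capitals mark a GC box (GGGCGG or its reverse complement CCGCCC), and there is none before Fgf7. The third sequence, 30 bases on the minus strand of chr7:130266763-130266792, holds the sole E-box found in the promoters available for Fgf2, Fgf7, Fgf10, Fgfr2, Fgfr3 and Fgfr4; it begins 29 bases into the Fgfr2 transcript and is shown because CACGTG is the sequence that MYC and its partner MAX bind.
Fgfr2, E-box in capitals: caattacctattCACGTGttcccttcctaa
Over the 32851 mouse promoters of 250 bases before to 50 bases after a start site, read on both strands, 7.15% hold CACGTG and 35.7% hold a GC box. The half-site AGAACA (or TGTTCT) of the androgen receptor occurs in 19% and in none of the promoters of these 6 genes. None of these matches shows binding, and promoters of Fgf1 and Fgfr1 were not analysed here.

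The ligands. In the WT mouse, Fgf1 was the most abundant of the 4 ligands in every lobe, and in the MYC mouse its DLP and VP levels were 6.59 and 6.77 times lower. Fgf1, a gene at chr18:38838672-38929470 whose protein can bind all FGF receptors, read 12.4 FPKM in WT AP, 30.9 in WT DLP and 23.4 in WT VP, against 13.4, 4.69 and 3.45 FPKM in MYC AP, DLP and VP. MYC DLP and MYC VP thus lie below all 3 WT libraries, and MYC AP lies beside WT AP. The FPKM of MYC was 1.08 times that of WT in AP (95% counting interval 0.971 to 1.21), 0.152 times in DLP (0.133 to 0.173) and 0.148 times in VP (0.128 to 0.170). From the highest to the lowest library the level of Fgf1 spanned 8.96-fold, and only MYC AP and WT AP were neighbours that counting error could not separate.

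Fgf2, the basic FGF, is made by stromal cells and has no conventional secretion signal. It read 4.81, 7.07 and 2.80 FPKM in WT AP, DLP and VP and 3.23, 0.647 and 0.598 FPKM in MYC AP, DLP and VP. The MYC value was the lower one in every lobe. The ratio of MYC to WT came to 0.671 (0.457 to 0.989) in AP, to 0.0916 (0.0405 to 0.177) in DLP and to 0.213 (0.0980 to 0.426) in VP. The MYC DLP and VP values rest on an estimated 9 and 10 reads, so their own ratio of 1.08 (0.383 to 2.91) leaves the order of those 2 libraries unresolved. The levels of MYC AP and WT VP were also within counting error of each other.

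Fgf7, keratinocyte growth factor, was highest in AP in both mice. Its levels were 3.81, 1.99 and 1.22 FPKM in WT AP, DLP and VP and 4.79, 1.13 and 0.434 FPKM in the MYC lobes. The MYC mouse thus had the higher AP value and the lower DLP and VP values, with ratios to WT of 1.26 (1.05 to 1.51), 0.567 (0.420 to 0.755) and 0.355 (0.228 to 0.531). On the log2(FPKM + 1) scale the DLP and VP differences were -0.49 and -0.63, short of 2-fold; the added 1 FPKM shrinks ratios of genes this low, and in VP the plain ratio did pass 2-fold. In the order of levels, counting error left only WT VP and MYC DLP unresolved.

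Fgf10, the closest relative of Fgf7 among these ligands and a ligand of the same receptor form, split between lobes in the same way. It read 2.04, 3.07 and 2.07 FPKM in WT AP, DLP and VP and 3.35, 0.671 and 0.356 FPKM in the MYC lobes. The MYC AP level was the highest of the 6, although its excess over WT DLP was within counting error (ratio 1.09, 0.906 to 1.31). MYC was 1.64 times WT in AP (1.27 to 2.12), 0.218 times in DLP (0.150 to 0.314) and 0.172 times in VP (0.103 to 0.265). The WT AP and VP levels of Fgf10 could not be separated (ratio 1.01, 0.765 to 1.34), whereas those of Fgf7 differed 3.11-fold (2.42 to 4.00).

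Summed over the 4 ligands, the levels were 23.0, 43.0 and 29.5 FPKM in WT AP, DLP and VP and 24.8, 7.13 and 4.84 FPKM in MYC AP, DLP and VP. Fgf1 made up the largest part of the sum in every library, from 53.7% in WT AP to 79.3% in WT VP. Fgf2, Fgf7 and Fgf10 made up the rest, and the share of Fgf7 ran from 4.15% in WT VP to 19.4% in MYC AP. Fgf1 carried most of the lower sum in MYC DLP and VP, and the other 3 ligands were lower there too.

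**Figure D1:**
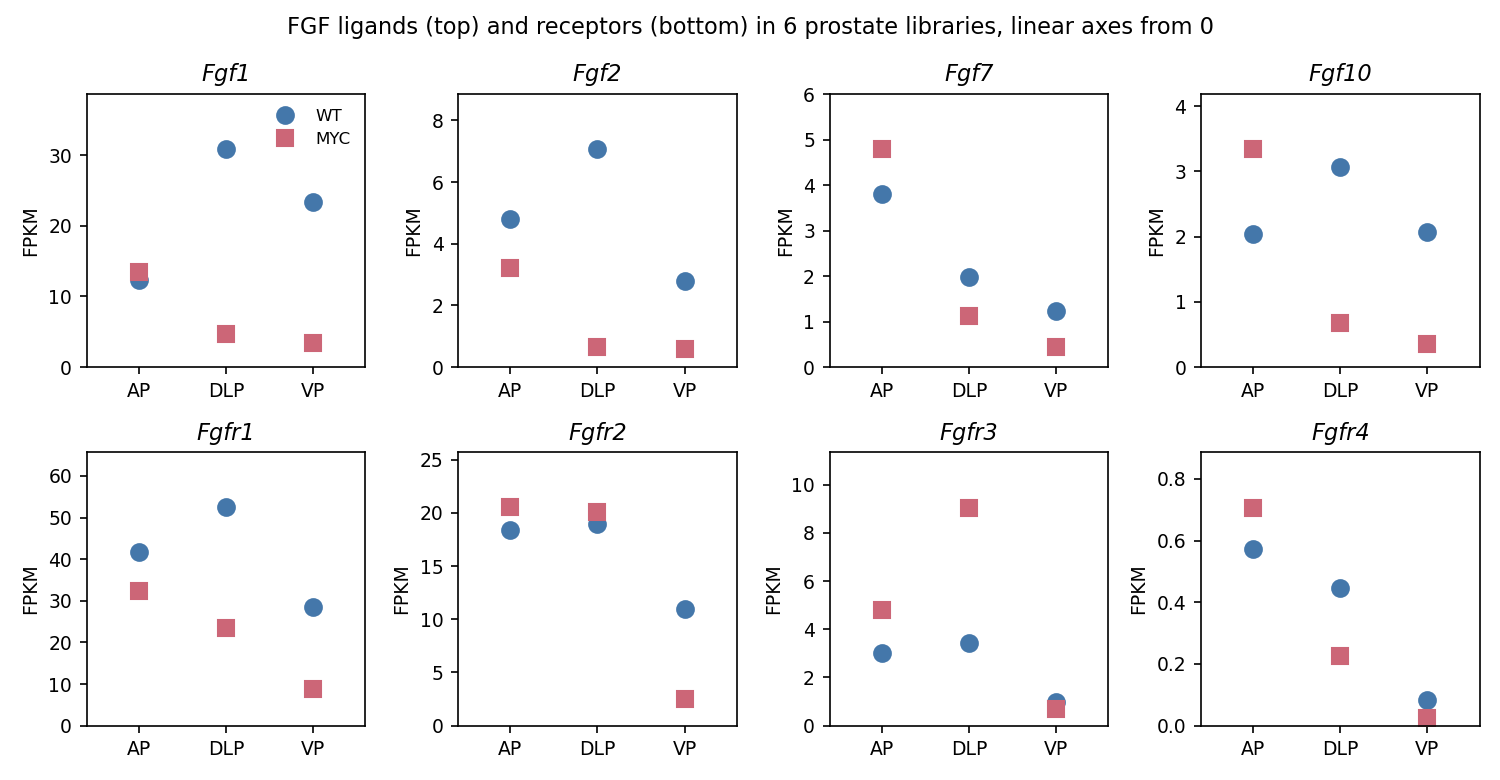
Level of each of the 8 FGF genes (y axis, FPKM, linear from 0, own scale per gene) in the AP, DLP and VP of the WT mouse (blue circles) and the MYC mouse (red squares), 1 library per point. All 8 genes are lowest in MYC VP, and the 4 ligands are also low in MYC DLP, for example Fgf1 at 4.69 against 30.9 FPKM in WT DLP.

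The receptors. Fgfr1 was the most abundant receptor in each library, and in the MYC mouse it was lower in every lobe. Fgfr1, at chr8:25518759-25575718, is the main FGF receptor of mesenchymal cells and is also found in prostate tumor epithelium. Its levels were 41.7, 52.6 and 28.5 FPKM in WT AP, DLP and VP and 32.4, 23.6 and 8.80 FPKM in MYC AP, DLP and VP. Each MYC library lies below its WT counterpart, with ratios of 0.777 (0.733 to 0.823) in AP, 0.448 (0.422 to 0.475) in DLP and 0.309 (0.283 to 0.337) in VP. These rest on an estimated 658 reads or more per library, and no neighbours in the order of Fgfr1 levels were within counting error of each other.

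Fgfr2 differed between genotypes in VP and hardly elsewhere. It read 18.4, 18.9 and 11.0 FPKM in WT AP, DLP and VP and 20.5, 20.1 and 2.54 FPKM in MYC AP, DLP and VP. The AP and DLP values of both mice form a narrow group in which no neighbours could be separated by counting error, and MYC VP stands alone at the bottom. The AP ratio of MYC to WT was 1.11 (1.03 to 1.21), against 1.06 (0.986 to 1.14) in DLP and 0.231 (0.197 to 0.270) in VP. The table has 1 row for the gene, so the epithelial and mesenchymal splice forms of Fgfr2, which bind different ligands, were not told apart.

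Fgfr3 was the only one of the 7 genes at or above a mean of 1 FPKM that was called higher in MYC in any lobe. Its levels were 3.01, 3.44 and 0.971 FPKM in WT AP, DLP and VP and 4.78, 9.05 and 0.706 FPKM in MYC AP, DLP and VP. MYC DLP was the highest library, and the VP libraries of both mice were the lowest. WT AP and WT DLP could not be separated by counting error. MYC was 1.59 times WT in AP (1.34 to 1.91), 2.63 times in DLP (2.31 to 3.00) and 0.728 times in VP (0.521 to 0.999).

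Fgfr4, a receptor best known from liver bile acid control, was low throughout. It read 0.572, 0.446 and 0.0821 FPKM in WT AP, DLP and VP and 0.705, 0.225 and 0.0248 FPKM in the MYC lobes, from an estimated 1 to 47 reads. The MYC to WT ratios of 1.23 (0.723 to 2.27), 0.503 (0.210 to 1.03) and 0.302 (0.00510 to 2.16) did not exclude equality, so a genotype difference was not detectable at this depth.

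The receptor make-up of the libraries changed with these levels. Fgfr1 gave 65.4%, 69.7% and 70.2% of the summed receptor FPKM in WT AP, DLP and VP, and 55.4%, 44.5% and 72.9% in the MYC lobes. Fgfr2 gave 25.1% in WT DLP and 37.9% in MYC DLP, although its own level there was nearly the same. Fgfr3 gave 4.55% in WT DLP and 17.1% in MYC DLP. The sum of the 4 receptors was 63.7, 75.4 and 40.5 FPKM in WT AP, DLP and VP and 58.4, 52.9 and 12.1 FPKM in MYC AP, DLP and VP.

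**Figure D2:**
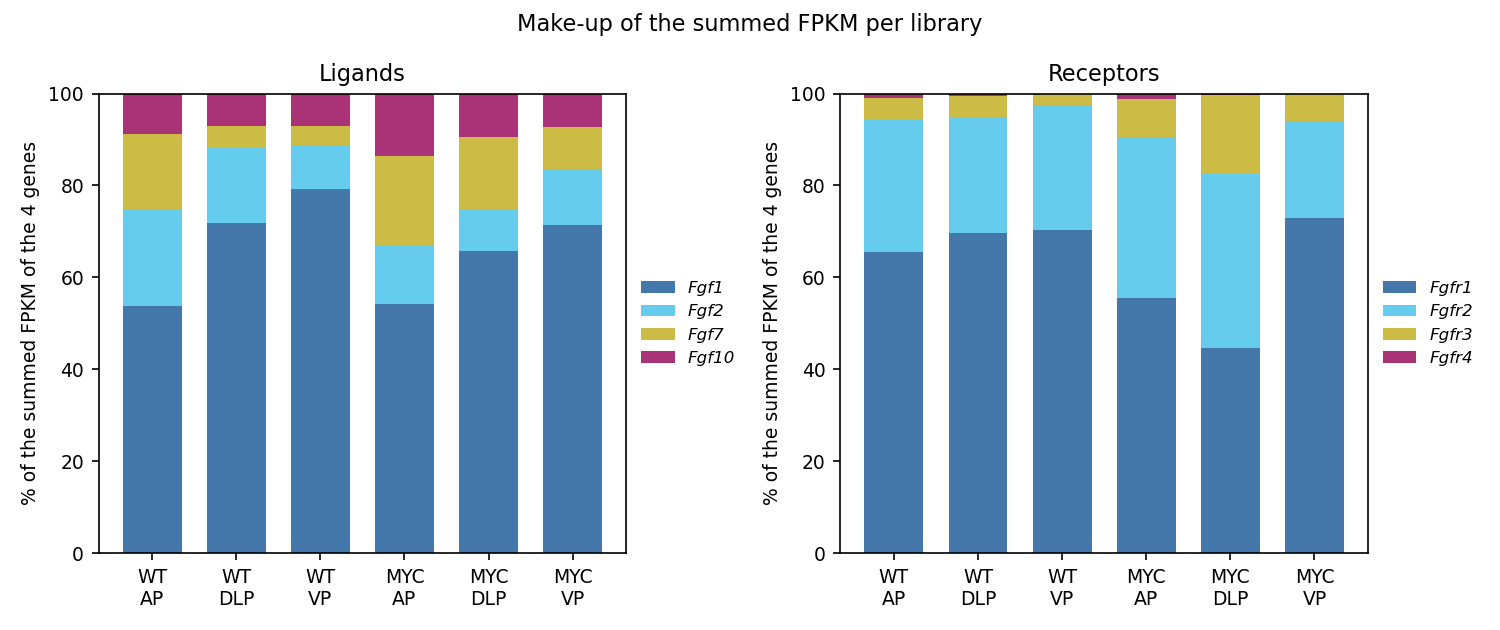
Share of each gene (y axis, % of the summed FPKM) among the 4 ligands (left) and the 4 receptors (right) in each of the 6 libraries. Fgf1 and Fgfr1 fill the largest part of each bar, and MYC DLP has the smallest Fgfr1 part (44.5%) and the largest Fgfr3 part (17.1%).

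MYC against WT within each lobe. The question of these comparisons is how the FGF genes differ between the transgenic and the WT gland where the same lobe is compared. In AP, none of the 7 genes differed by 2-fold, where 2.65% of the 12361 genes did. In DLP, 5 of 7 did, against 9.85% of all genes: Fgf1, Fgf2, Fgf10 and Fgfr1 were lower (3.39% of all genes were lower) and Fgfr3 was higher (6.46%). In VP, 5 of 7 did, against 12.8% of all genes, and all 5 were lower (5.95%): Fgf1, Fgf2, Fgf10, Fgfr1 and Fgfr2.

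In DLP 3 of the 4 ligands were called lower and 1 receptor each way, and in VP 3 of the 4 ligands and 2 of the 3 receptors were called lower. On the log2(FPKM + 1) scale the median difference of the 4 ligands stood at 0.19 in AP, -1.79 in DLP and -1.21 in VP, beside 0.13, 0.03 and 0.04 over all genes tested. That of the 3 receptors came to 0.15 in AP, 0.08 in DLP and -1.59 in VP. In DLP the receptors ranged from -1.13 for Fgfr1 to 1.18 for Fgfr3, with Fgfr2 at 0.08. In VP all 3 were below 0, Fgfr3 with -0.21 being the smallest difference.

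**Figure D3:**
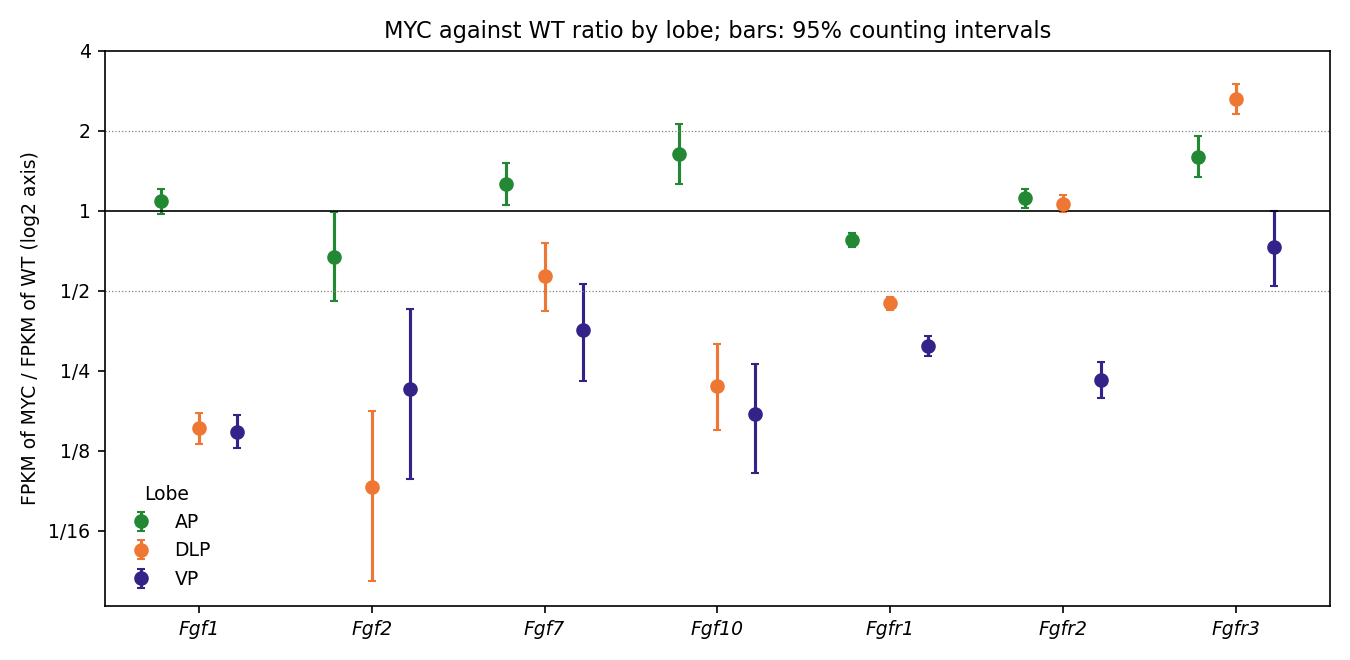
FPKM of MYC divided by FPKM of WT (y axis, log2 scale) for the 7 genes averaging 1 FPKM or more, in AP (green), DLP (orange) and VP (purple); bars are 95% counting intervals of 1 library against 1 library, and dotted lines mark 2-fold. Fgf1 lies near 1 in AP and at 0.152 and 0.148 in DLP and VP, Fgfr2 leaves 1 by over 2-fold in VP alone, and Fgfr3 in DLP lies above it at 2.63.

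Lobe against lobe within each mouse. In the WT mouse the FGF genes differed little between AP and DLP. Of the 7 genes only Fgf1 differed by 2-fold (5.16% of all genes did), being higher in DLP (3.85% of all genes were) with a log2 difference of 1.26. Of 10 smooth muscle markers 9 were above 0 here and 2 were called higher (median 0.75), and 6 of 15 hematopoietic markers were lower; relative to the fibroblast and luminal medians Fgf1 stood at 1.44 and 1.13. WT VP had 2 of 7 genes 2-fold lower than WT AP (18.2% of all genes differed and 10.3% were lower), Fgf7 and Fgfr3. In the same comparison 12 of 12 endothelial, 7 of 8 basal and 10 of 20 fibroblast markers were lower (medians -2.21, -1.44 and -0.99), as were 11 of 15 hematopoietic markers (-1.39), 3 of 8 luminal markers were higher, and relative to the fibroblast median Fgf7 stood at -0.12 and Fgfr3 at -0.03, both under 2-fold, while Fgf1 stood at 1.86 and Fgf10 at 1.01. Relative to the median of the luminal markers, Fgf7 stood at -1.78 and Fgfr3 at -1.69. WT VP had 2 of 7 lower than WT DLP (8.92% differed and 6.29% were lower), Fgf2 and Fgfr3; with size factors or TMM-like scaling Fgf2 was no longer called. Here 12 of 12 endothelial, 3 of 8 basal and 8 of 20 fibroblast markers were lower (medians -1.86, -0.96 and -0.90), and relative to the fibroblast median Fgf2 stood at -0.19 and Fgfr3 at -0.27, against -1.52 and -1.60 relative to the luminal median.

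Between the lobes of the MYC mouse more of the genes were called. MYC DLP had 4 of 7 genes 2-fold lower than MYC AP (8.03% of all genes differed and 3.49% were lower), and these were the 4 ligands, at log2 differences of -1.34 for Fgf1, -1.36 for Fgf2, -1.44 for Fgf7 and -1.38 for Fgf10. The receptors differed less, Fgfr1 by -0.44, Fgfr2 by -0.03 and Fgfr3 by 0.80. Of the fibroblast markers 10 of 20 were lower in this comparison (median -1.05), and relative to that median the ligands stood between -0.40 for Fgf7 and -0.29 for Fgf1, Fgfr2 at 1.01 and Fgfr3 at 1.84. Relative to the luminal median the ligands stood between -1.89 for Fgf7 and -1.79 for Fgf1, and 11 of 15 hematopoietic markers were called higher (median 1.23). All 10 smooth muscle markers were below 0, of which 1 was called lower (median -0.69). MYC VP had all 7 genes 2-fold lower than MYC AP (25.1% of all genes differed and 16.1% were lower), from -1.40 for Fgf2 to -2.60 for Fgfr2. Markers were lower as well, 19 of 20 for fibroblasts (median -2.86), 12 of 12 for endothelium (-2.25), 6 of 8 for basal cells (-1.43) and 5 of 10 for smooth muscle (-0.94). Relative to the fibroblast median all 7 genes turned positive on the log2(FPKM + 1) scale, from 0.26 for Fgfr2 to 1.46 for Fgf2. In this and the other lobe comparisons the added 1 FPKM shrinks low FGF genes more than most markers, which raises such values where both fall. The plain ratios of Fgf7 and Fgf10 here were 0.0905 and 0.107, so their positive sign may rest on that scale. Relative to the luminal median all 7 remained over 2-fold lower, from -1.59 for Fgf2 to -2.79 for Fgfr2. MYC VP against MYC DLP gave a different set: 3 of 7 were 2-fold lower (17.6% differed and 14% were lower), and these were the receptors Fgfr1 (-1.33), Fgfr2 (-2.57) and Fgfr3 (-2.56), while the ligands lay between -0.57 for Fgf7, whose plain ratio of 0.384 did pass 2-fold, and -0.04 for Fgf2. Beside them 8 of 8 basal markers (median -2.06), 19 of 20 fibroblast markers (-1.94), 12 of 12 endothelial markers (-1.91) and 9 of 15 hematopoietic markers (-1.12) were lower, and relative to the fibroblast median Fgfr1 turned to 0.62 while Fgfr2 and Fgfr3 stood at -0.63 and -0.62 and the ligands between 1.37 for Fgf7 and 1.90 for Fgf2. Relative to the luminal median Fgfr1, Fgfr2 and Fgfr3 stood at -1.09, -2.34 and -2.33. Of 10 smooth muscle markers 9 were below 0 and none was called (median -0.22). MYC AP, the reference of 2 of these 3 comparisons, also held 524.1 FPKM of seminal vesicle transcripts, against 11.3 in MYC DLP and 0 in MYC VP. The part of these markers in the lobe differences was not tested. These comparisons share libraries with each other and with the genotype comparisons.

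Markers of stromal cells, which make several FGFs, were set beside these genes. In bulk tissue, fewer cells of a type and less RNA per cell cannot be told apart. The median log2 difference between MYC and WT of 20 fibroblast markers was 0.48 for AP (5 of 20 called higher, none lower), -0.21 in DLP (2 higher, 4 lower, with markers from -1.81 to 2.03) and -1.19 in VP (none higher, 12 lower). Their summed level was 2652, 2814 and 1413 FPKM in WT AP, DLP and VP and 3252, 1581 and 421.3 FPKM in the MYC lobes, with no marker at 0 in any library. The 10 smooth muscle markers had medians of 0.55, -0.83 (3 lower, 10 of 10 below 0) and -0.81 (2 lower, 9 of 10 below 0), and sums of between 261.7 FPKM in MYC VP and 525.1 FPKM in WT DLP.

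The differences were also set against marker medians, although the fibroblast markers spread widely in DLP and the smooth muscle median there, -0.83, was lower than theirs. Relative to the fibroblast median in AP, Fgf7 turned from 0.27 to -0.21, Fgf10 went from 0.51 to 0.03, Fgfr3 from 0.53 to 0.05 and Fgfr2 from 0.15 to -0.33, and Fgfr1 stood at -0.84. In DLP the relative difference was -2.27 for Fgf1, -2.08 for Fgf2, -1.07 for Fgf10 and -0.28 for Fgf7. In VP it was -1.26 for Fgf1, -0.06 for Fgf2, 0.01 for Fgf10 and 0.56 for Fgf7. Fgfr1 stood at -0.91 in DLP and -0.40 in VP, Fgfr2 at -0.57 in VP, and Fgfr3 at 1.39 in DLP and 0.98 in VP. Relative to the luminal median, DLP gave -2.62 for Fgf1, -2.43 for Fgf2, -1.42 for Fgf10, -0.62 for Fgf7, -1.26 for Fgfr1 and 1.04 for Fgfr3. VP gave -2.19 for Fgf1, -0.99 for Fgf2, -0.92 for Fgf10, -0.37 for Fgf7, -1.33 for Fgfr1, -1.50 for Fgfr2 and 0.05 for Fgfr3. In AP, Fgf7, Fgf10, Fgfr2 and Fgfr3 stood at 0.40, 0.65, 0.28 and 0.66 relative to that median. On the log2(FPKM + 1) scale, only Fgf1 of the ligands was more than 2-fold lower in VP against both references. The added 1 FPKM shrinks the differences of the low ligands Fgf2, Fgf7 and Fgf10 more than those of most markers. Their relative values in VP are raised by it, and their plain VP ratios of MYC to WT were 0.213, 0.355 and 0.172. The part of the stromal markers in the ligand result was not tested beyond these differences.

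Epithelial and blood markers gave other patterns. The 8 basal markers had medians of -0.46 in AP (1 of 8 called higher, 2 lower), 0.42 in DLP (2 of 8 called higher) and -0.59 in VP (1 lower), and their sum ran from 513.7 FPKM in MYC VP to 2414 FPKM in WT AP. The 8 luminal markers had medians of -0.13, 0.13 and -0.26, and sums from 2195 FPKM in WT AP to 4364 FPKM in WT VP. The 12 endothelial markers lay at 0.10, 0.23 and 0.09. Of 16 hematopoietic markers, 15 reached 1 FPKM; all 15 were called higher in MYC DLP (median 1.80) and 11 in MYC VP (median 1.31), none in AP (median -0.04). No FGF ligand was called higher in those lobes. The part of these markers in the FGF results was not tested.

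Tissue from outside the prostate was checked as well. The seminal vesicle genes in the table summed to 524.1 FPKM in MYC AP, 11.3 in MYC DLP, 0 in MYC VP and at most 0.186 FPKM in the WT libraries, and the MYC AP values of Fgf7, Fgf10 and Fgfr3, which are above those of WT AP, come from the library with the most of these transcripts; their part in them was not tested. Of 6 adipocyte markers, at least 3 were listed at 0 in every library, and Plin1 in all of them; Fabp4, which endothelial cells also express, read 27.2 to 64.8 FPKM, and Lpl 3.45 to 15.6 FPKM with log2 differences of 1.67 in AP and 0.85 in DLP.

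**Figure D4:**
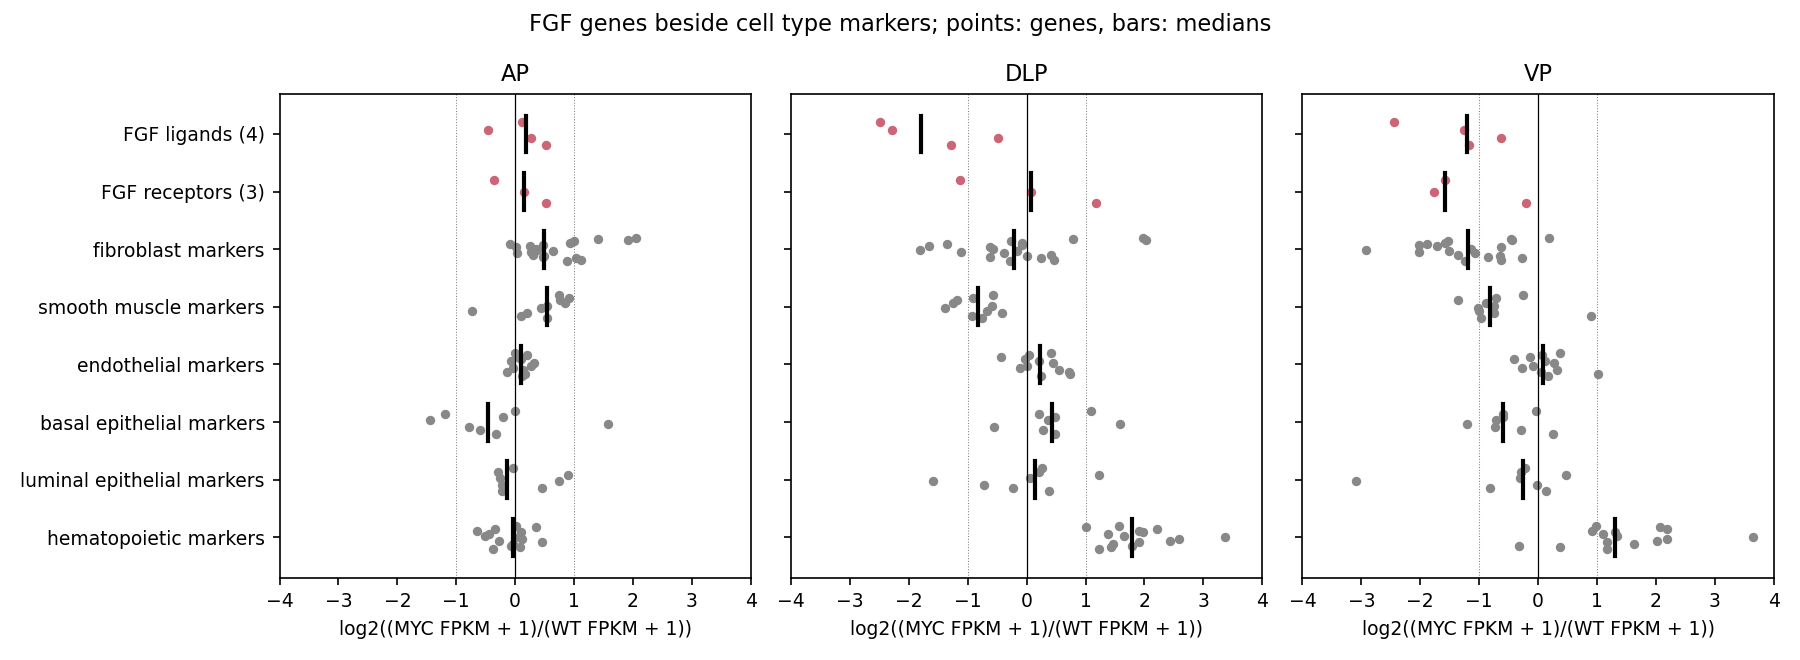
log2((MYC FPKM + 1)/(WT FPKM + 1)) (x axis) of the 4 FGF ligands and 3 receptors (red) and of cell type markers (grey) in AP, DLP and VP; each point is a gene averaging 1 FPKM or more and bars are medians. The ligand median is -1.79 in DLP, where the fibroblast median is -0.21, and -1.21 in VP, where the fibroblast median is -1.19. The nearness in VP depends on the scale, because the added 1 FPKM shrinks the low ligands more than most markers. Plain VP ratios of the ligands run from 0.148 for Fgf1 to 0.355 for Fgf7.

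The other FGF genes. Besides the 4 ligands above, 18 FGF genes are in the table, of which 4 were listed at 0 in all 6 libraries and 16 stayed under 1 FPKM in each. Only Fgf18, a ligand known from bone and lung growth, had a mean of 1 FPKM or more. It read 1.97, 1.88 and 0.816 FPKM in WT AP, DLP and VP and 1.56, 0.496 and 0.219 FPKM in the MYC lobes, so it too was lower in MYC DLP and VP (differences of -0.94 and -0.57 on the log2(FPKM + 1) scale, short of 2-fold there, although the plain ratios of these low values passed 2-fold).

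Among coreceptors and carriers, the called genes were Gpc6, Gpc3 and Sulf1, which were lower, and Sdc4 and Sdc1, which were higher. Of 19 such genes, 16 reached 1 FPKM; none was called in AP, 1 was higher and 2 were lower in DLP (9.85% of all genes were called), and 2 were higher and 2 lower in VP (12.8% of all genes), with medians of 0.12, -0.08 and -0.72. Gpc6, a glypican, read 11.6 FPKM in WT DLP and 2.14 in MYC DLP, and in VP 5.33 FPKM in the WT and 1.59 in the MYC mouse (log2 differences -2.01 and -1.29). Gpc3, another glypican, differed by -1.18 in DLP and -0.79 in VP. Sulf1, which trims sulfate from heparan sulfate and so weakens FGF binding, differed by -0.72 in DLP and -1.42 in VP. The syndecans are transmembrane heparan sulfate proteoglycans; Sdc4 differed by 1.15 and 1.30 and Sdc1 by 0.64 and 1.19 in DLP and VP, and the VP level of Sdc1 was 36.3 FPKM in the WT and 84.2 in the MYC mouse.

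Next came the relay inside the cell. Of 15 genes between receptor and MAP kinase, 14 reached 1 FPKM and none differed by 2-fold in any lobe, where 2.65%, 9.85% and 12.8% of all genes did in AP, DLP and VP; the medians were 0.07, 0.03 and 0.15. Mapk3, which encodes the kinase ERK1, had the greatest difference of the list, 0.80 in VP, from 59.4 to 104.3 FPKM. The adaptor Gab1 differed by -0.54 in VP, and Hras and Plcg1 by 0.67 and 0.60 in DLP. The phosphatase Ptpn11 (SHP2) differed by 0.38 in VP. Esrp1 and Esrp2, the splicing regulators that favor the epithelial form of Fgfr2, were not called in any lobe (Esrp1 0.08, -0.20 and 0.07, and Esrp2 -0.23, 0.24 and 0.30 in AP, DLP and VP); in MYC VP, where Fgfr2 was lowest, they read 41.6 and 35.8 FPKM.

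The genes that FGF signalling switches on, many of which act as feedback inhibitors, mostly read lower in MYC than in WT VP. All 15 on the list reached 1 FPKM. In VP 14 of 15 were below 0 with a median of -0.82 and 4 were called lower, as were 5.95% of all genes; in DLP 1 was called lower (median -0.31; 3.39% of all genes) and in AP none was called (median -0.01; 2.65% of all genes). The fibroblast, smooth muscle and basal marker medians in VP, -1.19, -0.81 and -0.59, moved with these genes, and their part was not tested. Spred1, Dusp6 and Spry2, inhibitors of the RAS and ERK pathway, differed in VP by -1.22, -1.20 and -1.19; the VP level of Dusp6 was 39.2 FPKM in the WT and 16.5 in the MYC mouse. Etv1, an ETS transcription factor, differed by -1.01 in DLP and -1.16 in VP. In DLP 6 of 15 were above 0 and 9 below, and Dusp5 had the highest value there, 0.99, against -0.26 in VP. Only Flrt3, a membrane protein that binds FGF receptors, was above 0 in VP, at 0.56, from 21.4 to 32.1 FPKM. These genes also answer to other growth factors, such as those of the EGF family.

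**Figure D5:**
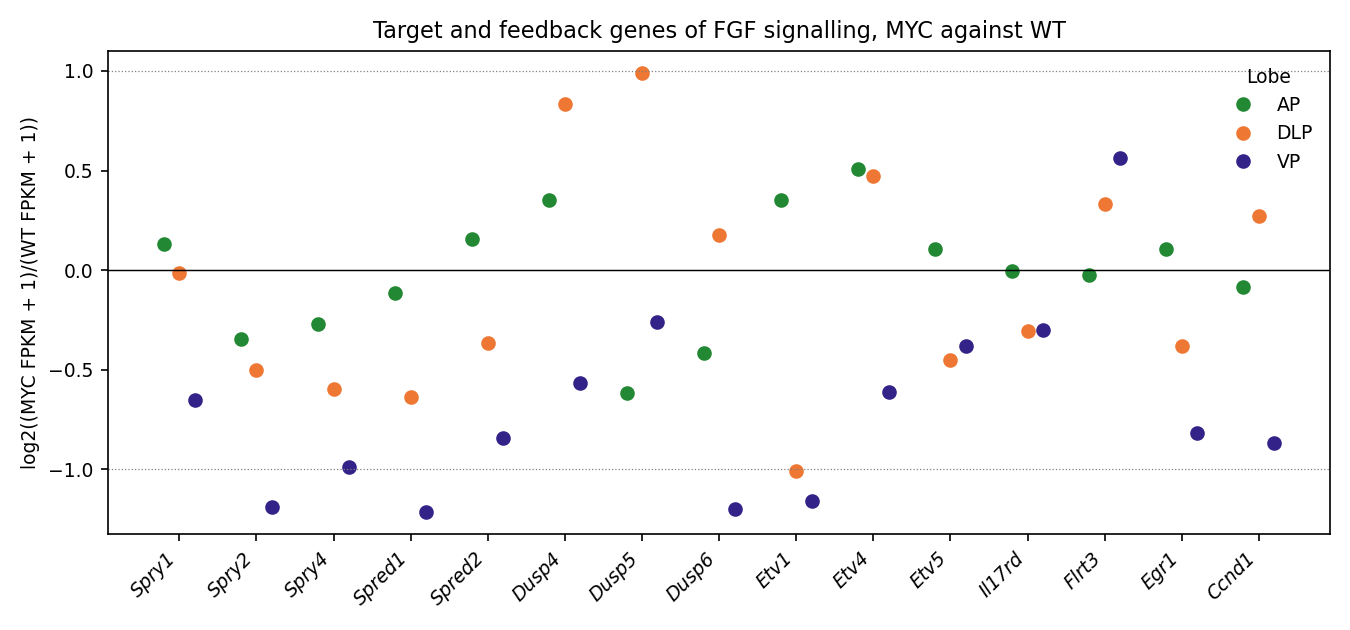
log2((MYC FPKM + 1)/(WT FPKM + 1)) (y axis) of the 15 FGF target and feedback genes in AP (green), DLP (orange) and VP (purple); dotted lines mark 2-fold. In VP 14 of 15 points lie below 0 and 4 lie below the lower dotted line, Spry2, Spred1, Dusp6 and Etv1.

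Genes with the most similar profiles. For each of the 7 genes, likeness was the root mean square difference between log2(FPKM + 1) profiles over the 6 libraries, each centred on its mean, among 12360 other genes; the profiles share libraries, and nearness says nothing of shared function. Nearest to Fgf1 was Dnajc10, a chaperone of the endoplasmic reticulum (0.18), which read 258.1 FPKM in WT DLP and 40.5 in MYC DLP. Angptl7 (0.23) and Edn3 (0.24) followed. Nearest to Fgf2 were Degs2, Ugdh (0.23 each) and Pamr1 (0.25); Ugdh is an enzyme that makes a sugar donor for glycosaminoglycans. Fgf7 lay nearest to Olfml1 (0.069), B3gnt9 (0.088) and Pygm (0.10), and Fgf10 to Tceal1 (0.041), Adamtsl1 (0.11) and Nalcn (0.15), a sodium leak channel.

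Among the receptors, Fgfr1 lay nearest to Rian, a noncoding RNA (0.13), and then to Egfr, the receptor of epidermal growth factor, and Ntn1 (0.14 each). Egfr read 36.5 FPKM in WT DLP and 20.1 in MYC DLP. Fgfr2 lay nearest to Alox12 (0.20), Kcne4 (0.22) and Cav1, a coat protein of caveolae (0.24). Fgfr3 lay nearest to Vdr, the vitamin D receptor (0.11), which read 8.69 FPKM in WT DLP and 21.9 in MYC DLP; Spink8 (0.15) and the complement gene C3 (0.17) followed. Among the FGF genes themselves, Fgfr3 and Fgf1 were the least alike (1.39), and Fgfr1 and Fgf10 (0.41) the most, closely followed by Fgf2 and Fgf10 (0.42).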

How the data were processed

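Bulk poly(A) RNA-seq of 6 prostate libraries, 1 per lobe and genotype, was analysed; genotype and lobe came from the sample titles. Per the labels and the submitters' processing notes, the authors demultiplexed single-end reads of 75 bases with bcl2fastq 2.18, mapped them with STAR to mm10 and quantified genes with Cufflinks; the deposited values are FPKM, although the methods call them counts. They are not whole numbers, so no count model was run; the annotation is not given in the sources used here. Of 24908 symbols, 24344 were found in RefSeq's GRCm38.p6 table, the source of coordinates and promoters.

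From the files, log2 ratios of (FPKM + 1) were computed for genes that averaged 1 FPKM or more across the libraries (Python 3.11.15, pandas 2.3.3, scipy 1.17.1), and called at 2-fold. Depth was estimated from FPKM steps of single-exon genes longer than 600 bases with under 0.3 FPKM; between 33.3% and 50.3% of these values were within 0.03 of a whole read. Reads per gene used GENCODE M1 transcript lengths, an older annotation, and gave exact (Clopper-Pearson) intervals of ratios. The programs were tested on simulated data. From each pathway list, the up to 5 genes with the largest absolute MYC against WT log2 ratio in any lobe were named, and for each FGF gene the 3 nearest in likeness; Flrt3 was named after its values were seen. Alternatives were scaling, pseudocount, filter, threshold and marker-relative ratios. The FGF genes and all lists were chosen with earlier results of these data known.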

Additional observations from a re-analysis of the deposited data

Results flagged for a closer look

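In 7 pairs of lobes, over 4 genes, MYC was higher than WT in one lobe and lower in the other with both counting intervals excluding equality, each from 1 library per lobe and genotype; the differences between lobes were not tested. Fgf1 is not among them because its AP interval includes equality, and Fgfr4 because its intervals in AP, DLP and VP all do. Fgf7 was higher in MYC in AP and lower in DLP and VP, and its log2 differences stood 0.759 apart between AP and DLP and 0.902 between AP and VP. Its AP difference of 0.27, beside an all-gene median of 0.13, became 0.15 with size factors and with TMM-like scaling. The all-gene medians were then -0.0015 and 0. Fgf10 did the same, with gaps of 1.8 between AP and DLP and 1.69 between AP and VP. Fgfr2 was higher in AP and lower in VP, 1.91 apart, but its AP difference of 0.15 became 0.00 with size factors and 0.01 with TMM-like scaling. Fgfr3 was higher in AP and DLP and lower in VP, 0.737 and 1.39 apart. Relative to the fibroblast median, the AP differences of Fgf7, Fgf10, Fgfr2 and Fgfr3 were -0.21, 0.03, -0.33 and 0.05 and the VP differences 0.56, 0.01, -0.57 and 0.98. Only the Fgf7 pair of AP and VP then had opposite signs, in the reverse order. Its VP value rests on 0.434 and 1.22 FPKM (plain ratio 0.355), which the added 1 FPKM shrinks more than most markers, so this reversal is not secure. In DLP, Fgf7 stood at -0.28 relative to the fibroblast median, below 0 as in AP, and Fgf10 at -1.07. Relative to the luminal median, the AP differences were 0.40, 0.65, 0.28 and 0.66 and the VP differences -0.37, -0.92, -1.50 and 0.05, which ends the Fgfr3 split between AP and VP. The Fgfr3 split between DLP and VP also ends, with 1.39 and 0.98 against the fibroblast and 1.04 and 0.05 against the luminal median.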

How the results depend on the processing

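Of 72 recounts of the FGF genes called 2-fold, over the 9 comparisons, 61 stayed within 1.5 times the count reported and 11 did not. With a mean of at least 10 FPKM, which removes 4 of the 7 genes, the counts were 2 in DLP and 3 in VP for MYC against WT, 0 for WT VP against AP and against DLP, 1 for MYC DLP against AP and 3 for MYC VP against AP. With a pseudocount of 0.1, Fgf7 was added in VP for MYC against WT, making 6, and in MYC VP against DLP, making 4. A 1.5-fold threshold gave 2 for WT DLP against AP, 5 for WT VP against AP and 4 for WT VP against DLP. Size factors and TMM-like scaling each left 1 gene, Fgfr3, for WT VP against DLP, so that Fgf2 was no longer called there. Of 432 recomputed log2 ratios of single genes, 301 moved within the counting interval, 122 moved further and 9 called ratios turned sign. All 9 came from setting ratios against the fibroblast median: Fgf10 in MYC against WT VP became 0.01 (0.0129); in MYC VP against AP, Fgf1 became 1.17, Fgf2 1.46, Fgf7 0.85, Fgf10 1.18, Fgfr1 1.10, Fgfr2 0.26 and Fgfr3 1.10; and Fgfr1 in MYC VP against DLP became 0.62. These turns hold on the log2(FPKM + 1) scale, where the added 1 FPKM shrinks low FGF genes more than most markers. They were not recomputed on plain ratios. Under the 3 other scalings, 10 ratios crossed 0, none of them called and none above 0.15 in size; among MYC against WT these were Fgf1 in AP (-0.03 with size factors and with TMM-like scaling) and Fgfr2 in DLP (0.00 with TMM-like scaling). Equal sums moved the all-gene median of MYC against WT VP from 0.04 to -0.15. No paired analysis was possible because each genotype is 1 mouse and each lobe of it 1 library; the lobes pair the genotypes but are not replicate animals. With 1 mouse per genotype, no between-animal error could be set beside any of these values.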

Other observations

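A pair of FGF genes outside the set stood out after their values were seen. Klb, beta-Klotho, a coreceptor of Fgf15 and Fgf21, read 0.0242, 0.0131 and 0 FPKM in WT AP, DLP and VP, and 0.888, 1.97 and 0.0301 FPKM in the MYC lobes, from an estimated 145 reads in MYC AP and 224 in MYC DLP. These 2 libraries are also the ones with the most seminal vesicle transcripts, which summed to 524.1 FPKM in MYC AP and 11.3 FPKM in MYC DLP. Klb was the higher in MYC DLP, and of the seminal vesicle genes only Svs3b shared that order, at 1.94 FPKM in MYC AP and 2.13 FPKM in MYC DLP. The part of these transcripts in the Klb values was not tested. Fgf5, a ligand known for its control of hair growth, was listed at 0 in WT AP, DLP and VP and in MYC AP, and read 0.0250 FPKM in MYC DLP and 0.793 in MYC VP, the latter from an estimated 75 reads. No other ligand of the family was highest in MYC VP except Fgf20, at 0.268 FPKM from an estimated 9 reads.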
